A study of Bos taurus with 11 samples.

Results

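Interferon-stimulated genes are the genes that cells switch on when interferon binds its receptors at the cell surface. The receptors pass the signal through JAK kinases to a protein complex with STAT2 and IRF9, which enters the nucleus and binds the promoters of these genes; their products sense viral RNA, block viral replication and tune the signal itself. In cattle the same genes are also known for their response to interferon tau, the signal of the early conceptus, and without infection they are kept at a low resting level. Here 36 such genes, chosen by name from this pathway, were followed in mammary parenchyma of Holstein heifer calves. A probe set is the group of array probes that reads a transcript, and 31 of the 36 genes were read by a probe set annotated to that symbol alone, out of 18444 genes so annotated in a table of 26773 probe sets. IFIT1, BST2, IFI44 and IFI44L had no such probe set and were not analysed here. DDX58 had none under that symbol either. Its present name is RIGI, and the probe set named RIGI is described beside the 31 and not counted with them.

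The calves had been allotted at birth to an elevated (n = 6) or a restricted (n = 5) supply of milk replacer, and all were killed at 54 ± 2 days. Elevated calves took 8.4 L of milk replacer per day (range 6 to 12 L) in 3 meals, which gave 5.9 ± 0.2 Mcal (SE) of metabolisable energy. Restricted calves took 4 L in 2 meals, which gave 2.8 ± 0.2 Mcal, so that the number of meals cannot be told apart from the amount. The milk replacer held 28% protein and 15% fat in both groups. Starter grain was offered to both groups from day 18, and calves were housed singly. A 6th restricted calf gave no sample because its small parenchyma could not be freed of the fat pad, which leaves a little developed gland of that group unmeasured. Each array read the parenchyma of 1 calf as a whole tissue, so fewer cells of a type and less RNA per cell cannot be told apart. Levels are log2 values made with RMA, on which a gap of 1 is a 2-fold difference in signal. They serve to compare calves within a gene, not genes with each other. Luminal keratins and other luminal markers (12 of 12 measured) had mean levels of 8.44 to 9.26 in elevated and 6.68 to 8.80 in restricted calves, and adipocyte markers (15 of 15) of 7.67 to 9.41 and 8.80 to 10.94. The adipocyte signal was highest in restricted 2 and restricted 4, which also had the lowest luminal signal.

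None of the 31 genes differed between the diets past the threshold of an adjusted p of 0.05 in limma, which fits all probe sets together and adjusts over all of them. Over all probe sets, 0% passed with the higher mean and 0.00747% with the lower mean in elevated calves. At an unadjusted p under 0.05 there were also 0 of the 31 genes in limma, where 10.3% of all probe sets lay under that level, 4.95% with the higher and 5.33% with the lower mean in elevated calves. The groups overlapped at each of the 31 genes, whereas they did not overlap at 1.28% of all probe sets. Elevated calves had the higher mean at 23 genes and the lower mean at 8, while 50.8% of all probe sets had the higher mean in elevated calves. The median difference over the 31 genes was 0.13 on the log2 scale, against -0.00049 over all probe sets with 1 symbol. It rested on single calves, with 0.0086 without elevated 3, 0.19 without elevated 5, 0.26 without restricted 1, and 0.064, 0.061 and 0.054 without restricted 2, 3 or 5 in turn. With the adipocyte marker mean as a covariate the median difference was -0.019, and 14 of the 31 genes had the higher mean in elevated calves. The mean of the 31 genes averaged 7.85 ± 0.27 over the 6 elevated calves and 7.74 ± 0.36 over the 5 restricted ones (SD), a gap of 0.11 that was smaller than the spread between calves. At 30 of the 31 genes the difference was smaller than the pooled within-group SD of that gene. The matching share of all probe sets was not computed, so this count cannot be read as particular to these genes. Each 95% interval shows what these 11 arrays could have missed at that gene alone, with no adjustment for the number of genes. All 31 included 0, and their outermost limits were 0.427-fold at SAMD9 and 2.18-fold at IFI27.

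**Figure D1:**
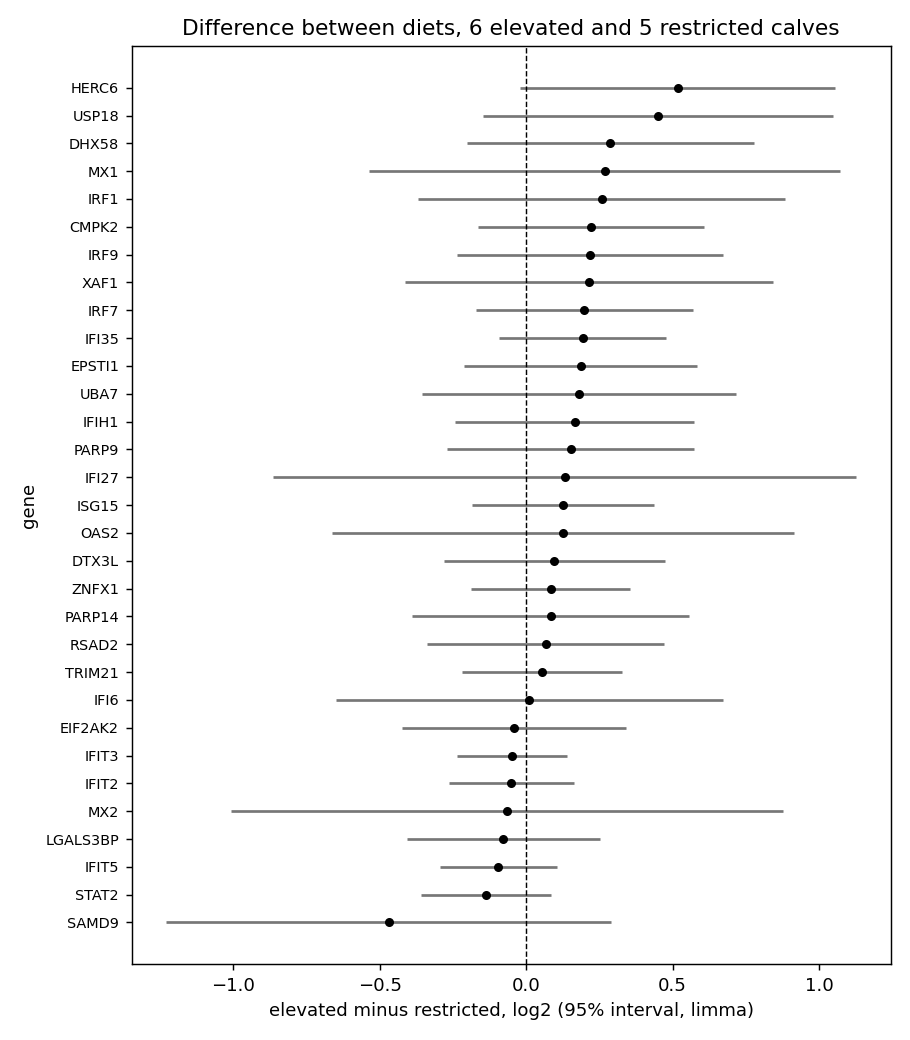
Difference between elevated and restricted calves (log2, horizontal axis) for each of the 31 genes (vertical axis, ordered by size); points are limma estimates and lines their 95% intervals. All intervals cross 0, and HERC6, at 0.52, comes closest to leaving it.

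The calves themselves differed far more than the diets. Elevated 3 and restricted 1, a calf from each diet, carried high levels of nearly the whole set. In elevated 3 the mean of the 31 genes was 8.33, against 7.61 to 7.94 in the other elevated calves. Restricted 1 had 8.34, while the rest of its group had 7.44 to 7.83. Elevated 3 had the highest value of its group at 24 of the 31 genes, and restricted 1 the highest of its group at 28. Together they held the highest value of all 11 calves at 26 genes, and at 21 genes they were the top pair. At the other end, restricted 5 had the lowest value of all calves at 14 genes. These calves were singled out after their values were seen, and nothing in the labels sets them apart from the rest of their group.

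**Figure D2:**
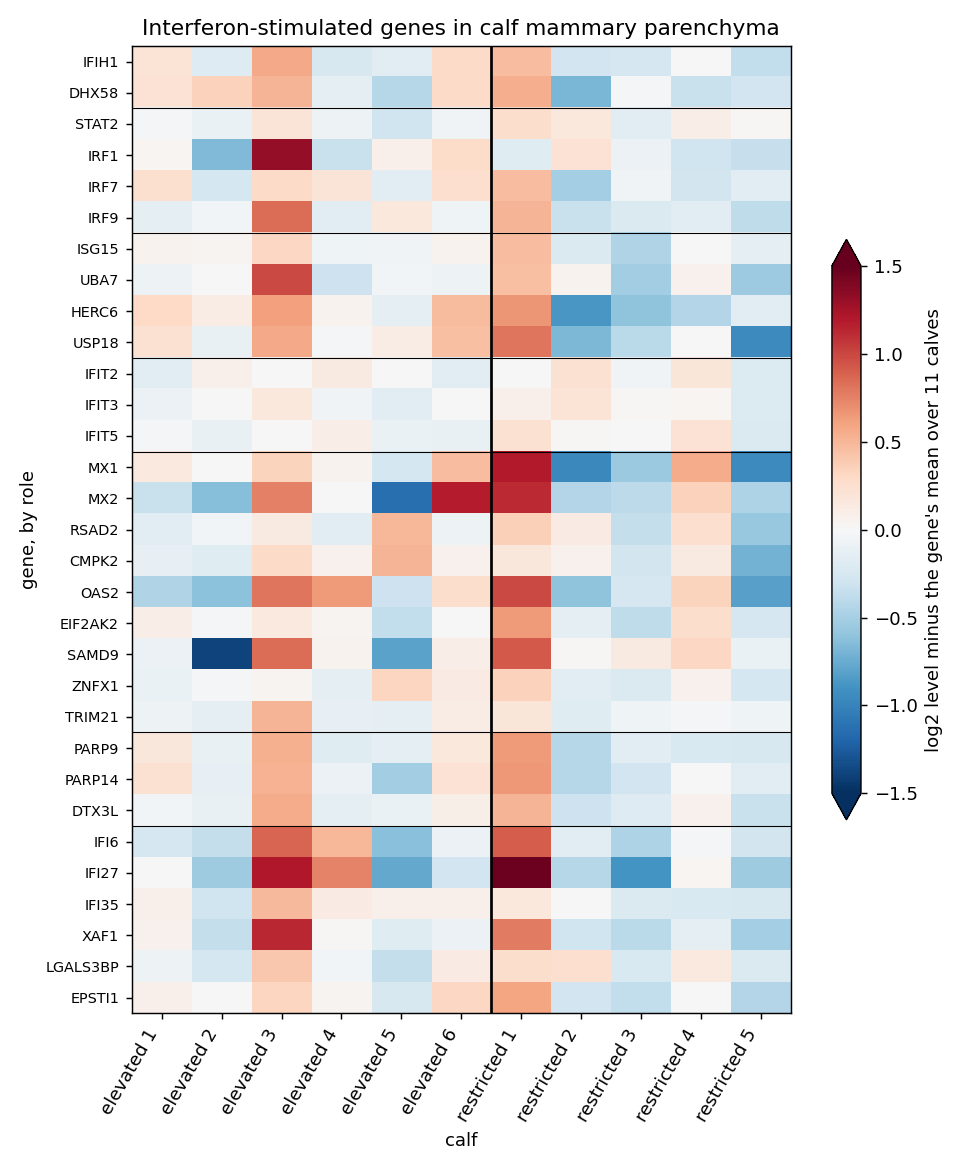
Each cell is the log2 level of a gene (rows, grouped by role) in a calf (columns, elevated left of the line, restricted right of it) minus the mean of that gene over 11 calves; red is above and blue below. The columns of elevated 3 and restricted 1 are red at most genes, and that of restricted 5 is blue.

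The spread between calves was larger than for most genes on the array. The pooled within-group SD had a median of 0.33 over the 31 genes, against 0.20 over all probe sets with 1 symbol, and 27 of the 31 genes lay above that value. Without elevated 3 and restricted 1 the median over the 31 genes was 0.23, which is 32.0% lower. That of all probe sets with 1 symbol was 0.20 again. These 2 calves lay farthest from their group medians in the mean of the same 31 genes. A fall in the spread of these genes was therefore built in by the choice of calves. The SD was larger in restricted than in elevated calves at 21 genes, and at 14 without those 2 calves. The matching share of all probe sets was not computed, so these counts cannot be read as particular to these genes. After removal of the group means, the median correlation among the 465 pairs of genes was 0.66 over 11 calves, with 69.0% of pairs above 0.5. The median was 0.00086 among pairs of 940 probe sets taken at an even step of 20 through the table, with 10.4% above 0.5. Without elevated 3 and restricted 1 the median over the pairs of the 31 genes was 0.30 over 9 calves, with 29.7% above 0.5, against 13.2% of the pairs of other probe sets. These correlations describe how genes vary across the same calves, share each array's normalisation, and carry no p.

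**Figure D3:**
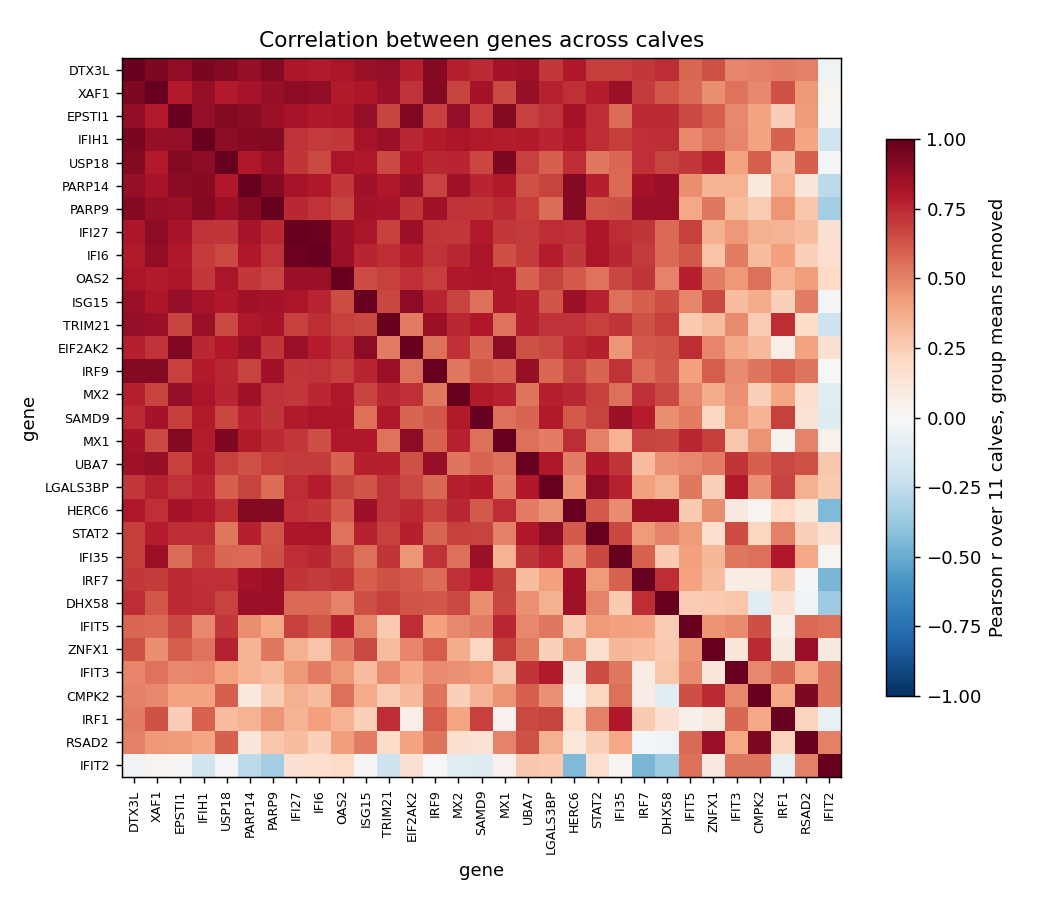
Pearson correlation between genes across 11 calves after removal of the group means (red positive, blue negative), genes ordered by their correlation with the mean of the others. DTX3L is first and IFIT2 last, and IRF1, RSAD2 and CMPK2 stand near IFIT2 at the weakly correlated end.

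Among the sensors of viral RNA, neither IFIH1 nor DHX58 differed between the diets beyond the spread. IFIH1, which encodes MDA5, a sensor of long RNA duplexes, averaged 7.20 ± 0.33 (SD) in elevated calves and 7.03 ± 0.34 in restricted ones. DHX58 encodes LGP2, a helicase that modulates the other sensors of this family. Its level was 7.02 at the lowest, 7.71 at the median and 7.97 at the highest in elevated calves, against 8.00, 6.77, 7.44, 7.12 and 7.16 in restricted 1 to 5. The highest and the lowest value therefore both fell in the restricted group, and the log2 difference was 0.29 ± 0.22 (SE; limma adjusted p = 0.696). RIGI, the sensor of RNA with a 5′ triphosphate, averaged 7.70 ± 0.20 (SD) in elevated calves and 7.71 ± 0.51 in restricted ones. Its highest level, 8.44, was in restricted 1 and the next, 8.05, in elevated 3.

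The transcription factors showed little difference between the diets. STAT2, a subunit of the interferon-activated complex, was at 8.22, 8.45 and 8.72 (lowest, median, highest) in elevated calves, against 8.78, 8.68, 8.36, 8.61 and 8.54 in restricted 1 to 5. Its log2 difference was -0.14 ± 0.10 (SE; limma adjusted p = 0.678), and only the 3 IFIT genes had a smaller pooled SD. IRF9, the DNA-binding subunit of the same complex, reached 9.09 in elevated 3, while the other elevated calves lay between 8.09 and 8.40. In restricted calves it was 8.76, 7.91, 8.04, 8.08 and 7.87, again with a gap between restricted 1 and the rest. IRF9 averaged 8.35 ± 0.38 (SD) in elevated calves and 8.13 ± 0.36 in restricted ones (limma adjusted p = 0.756), a log2 difference of 0.22 that was 0.069 without elevated 3 and 0.37 without restricted 1.

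IRF7, the factor that amplifies transcription of type I interferon genes, had 5.12, 5.60 and 5.68 as its lowest, median and highest level in elevated calves. In restricted 1 to 5 it was at 5.84, 4.87, 5.34, 5.11 and 5.22, so the elevated values lay within the restricted range. The log2 difference was 0.20 ± 0.17 (SE; limma adjusted p = 0.726). IRF1, a factor strongly induced by interferon gamma, followed the set less closely, with a correlation of 0.47 with the mean of the other genes. It stood at 9.72 in elevated 3, whereas the other elevated calves had 7.75 to 8.68 and restricted calves 8.06 to 8.62. Restricted 1, with 8.22, was not high for IRF1, unlike for the other 3 factors. Across calves IRF1 had a correlation of 0.80 with IFI35 (Spearman 0.65) and of 0.044 with MX1 (Spearman -0.0091; group means removed, n = 11). Without elevated 3 and restricted 1 these were 0.79 and -0.084. IFI35 had the highest correlation with IRF1 in the set, and MX1 one of the lowest. Over all calves IRF1 also had 0.74 with TRIM21, 0.69 with SAMD9 and 0.60 with IRF9, but 0.26 with IRF7, 0.24 with ISG15 and 0.20 with HERC6.

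The ISG15 system held the genes with the largest differences towards elevated calves. ISG15 is a ubiquitin-like protein that is attached to other proteins; UBA7 activates it, HERC6 acts as its ligase in mice, and USP18 removes it and also restrains the type I interferon receptor. HERC6 was at 8.84, 9.19 and 9.60 (lowest, median, highest) in elevated calves, against 9.65, 8.12, 8.38, 8.54 and 8.83 in restricted 1 to 5. Every elevated calf thus lay above restricted 2 to 5, though hardly above restricted 5, and below restricted 1. The mean was 1.43-fold higher in elevated calves (95% interval 0.985 to 2.08; limma adjusted p = 0.507). Without restricted 1 the log2 difference of HERC6 was 0.75 in place of 0.52, and it still did not pass (limma adjusted p = 0.272). It was 0.27 without restricted 2 and restricted 4, the calves with the most adipocyte marker signal, and 0.16 with the adipocyte marker mean as a covariate.

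USP18 resembled HERC6. Its level was 7.30, 7.58 and 7.98 (lowest, median, highest) in elevated calves, against 8.21, 6.74, 7.00, 7.42 and 6.45 in restricted 1 to 5. The restricted calves spanned both ends of the range, with an SD of 0.68, against 0.27 in elevated calves. The log2 difference was 0.45 ± 0.27 (SE; limma adjusted p = 0.606), with 0.71 without restricted 1 (limma adjusted p = 0.328), 0.27 without restricted 5 (adjusted p = 0.776) and 0.30 with the adipocyte covariate. ISG15 itself was at 5.88, 5.99 and 6.25 in elevated calves, against 6.40, 5.73, 5.50, 5.95 and 5.80 in restricted calves. The spread of restricted calves enclosed that of elevated calves, and the log2 difference was 0.13 ± 0.14 (SE), with 0.032 without restricted 3 and 0.26 without restricted 1. UBA7 averaged 7.69 ± 0.46 (SD) in elevated calves and 7.51 ± 0.43 in restricted ones, and reached 8.60 in elevated 3. All 4 genes of the system had the higher mean in elevated calves, with 0 past the threshold.

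**Figure D4:**
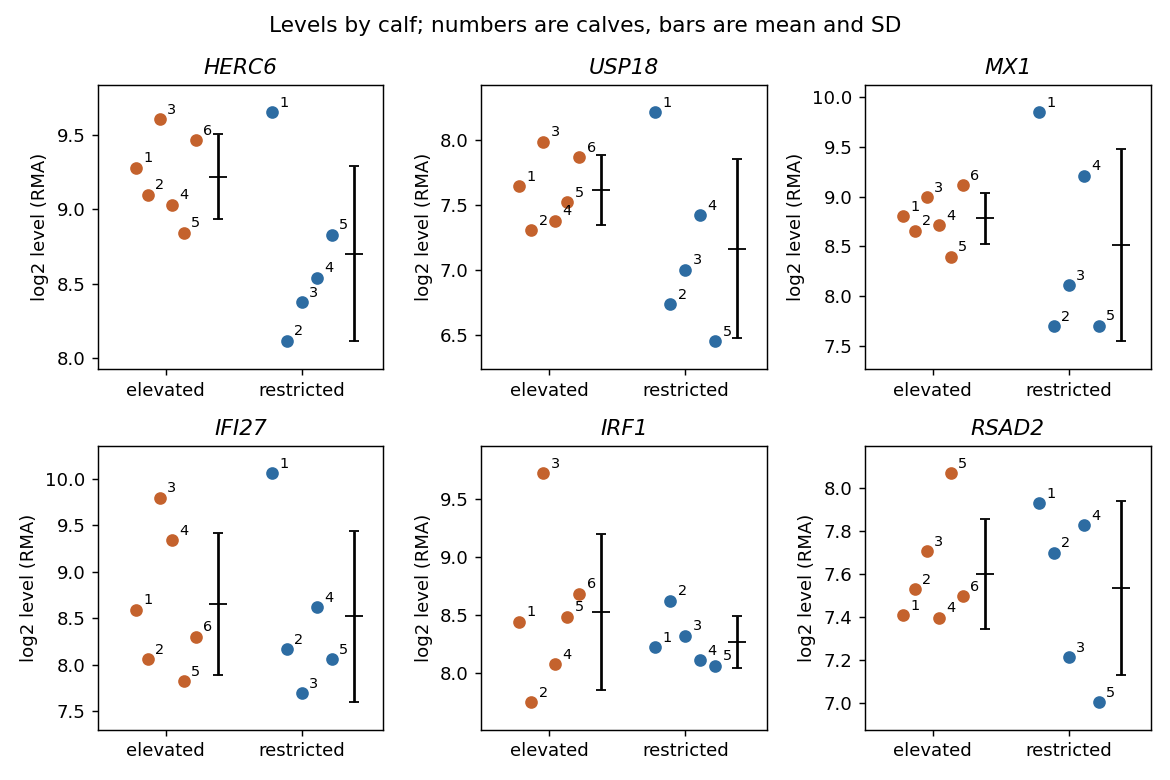
Log2 levels (vertical axes, which do not start at 0) of 6 genes in each calf, numbered as in the text, with the mean and SD of each diet as black bars. Restricted 1 is the highest calf for HERC6, USP18, MX1 and IFI27, elevated 3 for IRF1 and elevated 5 for RSAD2.

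The IFIT genes, a family of interferon-induced genes of which some products bind viral RNA, were the steadiest of the set. All 3 measured members had the lower mean in elevated calves by small amounts, though IFIT3 turned with array weights (0.013) and IFIT2 with the adipocyte covariate (0.090). IFIT5 averaged 10.05 ± 0.08 (SD) in elevated calves and 10.14 ± 0.19 in restricted ones, and IFIT3 6.59 ± 0.11 and 6.64 ± 0.15. The IFIT2 probe set read 3.59 to 3.90 in elevated and 3.56 to 4.00 in restricted calves, far under the array medians of 6.37 to 6.45, a range in which RMA compresses differences. IFIT2 had a correlation of 0.012 with the mean of the other 30 genes. The IFIT mean was 6.87 in elevated 3 and 6.92 in restricted 1, inside the range of 6.61 to 6.98 over all calves.

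The other antiviral effectors held some of the most variable genes. MX1 and MX2 encode dynamin-like GTPases that trap viral components. MX1 was at 8.40, 8.76 and 9.12 (lowest, median, highest) in elevated calves, against 9.85, 7.70, 8.11, 9.21 and 7.70 in restricted 1 to 5. All elevated calves fell between the low and the high restricted ones, with an SD of 0.26 in elevated and 0.97 in restricted calves. MX2 was at 6.72, 7.69 and 9.03 in elevated calves, against 8.97, 7.41, 7.46, 8.20 and 7.39 in restricted calves; its highest value was in elevated 6, not in elevated 3, which had 8.60. The log2 differences were 0.27 ± 0.37 (SE; limma adjusted p = 0.836) for MX1 and -0.06 ± 0.43 (SE; adjusted p = 0.971) for MX2. That of MX1 was 0.064 without restricted 2 and 0.60 without restricted 1.

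OAS2, an enzyme whose product activates RNase L, was at 5.42, 6.01 and 6.83 (lowest, median, highest) in elevated calves, against 7.02, 5.42, 5.78, 6.36 and 5.21 in restricted 1 to 5. Both groups spread over nearly the same range, with a log2 difference of 0.13 ± 0.36 (SE; limma adjusted p = 0.929). SAMD9, an antiviral factor, was at 6.99, 8.36 and 9.22 in elevated calves, against 9.29, 8.39, 8.51, 8.69 and 8.28 in restricted calves. Elevated 2 (6.99) and elevated 5 (7.57) stood low, and the log2 difference of -0.47 ± 0.35 (SE; limma adjusted p = 0.677) was the largest of the set towards restricted calves. It was -0.23 without elevated 2 and -0.68 without elevated 3. EIF2AK2, the kinase PKR that halts translation on viral RNA, averaged 8.90 ± 0.18 (SD) in elevated calves and 8.94 ± 0.42 in restricted ones. ZNFX1, a helicase with a role in RNA sensing, and TRIM21, a cytosolic antibody receptor and ubiquitin ligase, differed by 0.08 and 0.06 on the log2 scale, both within the spread between calves.

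RSAD2 and CMPK2 varied together and followed most other genes loosely, with correlations of 0.43 and 0.47 with the mean of the other 30 genes. RSAD2 encodes viperin, which turns CTP into a chain-terminating nucleotide, and CMPK2 is a nucleotide kinase that supplies its substrate. They are neighbours in the reference assembly ARS-UCD2.0, with no coding gene between them. RSAD2 was at 7.39, 7.51 and 8.07 (lowest, median, highest) in elevated calves, against 7.93, 7.70, 7.21, 7.83 and 7.00 in restricted 1 to 5. CMPK2 was at 7.23, 7.46 and 7.92 in elevated calves, against 7.57, 7.47, 7.13, 7.54 and 6.70 in restricted calves. In both genes elevated 5 was the highest and restricted 5 the lowest calf. Over all 31 genes the mean of elevated 5 was 7.62, among the lower ones. It also stood second highest for ZNFX1, with 9.51 against 9.53 in restricted 1, and ZNFX1 had correlations of 0.85 with RSAD2 and 0.75 with CMPK2. The correlation between RSAD2 and CMPK2 was 0.93 (Spearman 0.87; group means removed, n = 11), and 0.93 without elevated 3 and restricted 1. Their log2 differences between the diets were 0.07 ± 0.18 (SE) and 0.22 ± 0.18 (SE; limma adjusted p = 0.926 and 0.701).

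PARP9, DTX3L and PARP14 lie side by side in ARS-UCD2.0. PARP9 and DTX3L form a complex that modifies proteins with ADP-ribose and ubiquitin, and PARP14 is a related ADP-ribosyltransferase. PARP9 averaged 7.53 ± 0.27 (SD) in elevated calves and 7.37 ± 0.42 in restricted ones, DTX3L 8.78 ± 0.26 and 8.69 ± 0.35, and PARP14 7.79 ± 0.36 and 7.70 ± 0.42. Their log2 differences of 0.15, 0.10 and 0.08 were within the spread between calves, and with the adipocyte covariate they were -0.13, -0.064 and -0.19. DTX3L followed the rest of the set most closely, with a correlation of 0.96 with the mean of the other 30 genes. PARP9 and DTX3L had a correlation of 0.92 (Spearman 0.80), and of 0.55 without elevated 3 and restricted 1. MX1 and MX2, which are also neighbours, had 0.77 (Spearman 0.80), and 0.67 without these calves. The neighbours IFIT2 and IFIT3 had 0.54 (Spearman 0.41), below the median of 0.66 over all pairs of the set. DTX3L had a higher correlation with IFIH1 (0.94) than with PARP9, and MX1 a higher one with USP18 (0.93) than with MX2. Whether position plays a part was not tested.

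IFI6 and IFI27 encode small membrane proteins induced by type I interferon. IFI27 was at 7.83, 8.45 and 9.80 (lowest, median, highest) in elevated calves, against 10.06, 8.17, 7.70, 8.62 and 8.06 in restricted 1 to 5. Its pooled within-group SD of 0.84 was the largest of the 31 genes and exceeded that of 98.2% of all probe sets with 1 symbol. IFI6 was at 11.33, 11.79 and 12.83 in elevated calves, against 12.87, 11.79, 11.50, 11.93 and 11.68 in restricted calves. The 3 highest calves were the same in both genes: restricted 1, elevated 3 and elevated 4. IFI6 and IFI27 had a correlation of 0.98 (Spearman 0.97), the highest of all 465 pairs, and of 0.94 without elevated 3 and restricted 1. They do not lie on the same chromosome of ARS-UCD2.0. Their means nearly coincided between the diets, with log2 differences of 0.01 ± 0.30 (SE) for IFI6 and 0.13 ± 0.45 (SE) for IFI27.

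Of the remaining genes, IFI35 differed by 0.19 ± 0.13 (SE; limma adjusted p = 0.644). Its level was 6.16, 6.54 and 6.94 (lowest, median, highest) in elevated calves, against 6.62, 6.46, 6.24, 6.23 and 6.22 in restricted 1 to 5. XAF1, which promotes cell death, reached 8.08 in elevated 3 and 7.73 in restricted 1, whereas the other 9 calves lay between 6.44 and 7.02. EPSTI1 averaged 7.34 ± 0.21 (SD) in elevated calves and 7.16 ± 0.42 in restricted ones. Elevated 3 and restricted 1 were again its highest calves within their groups. LGALS3BP, a secreted glycoprotein, averaged 8.94 ± 0.28 in elevated calves and 9.02 ± 0.25 in restricted ones.

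**Figure D5:**
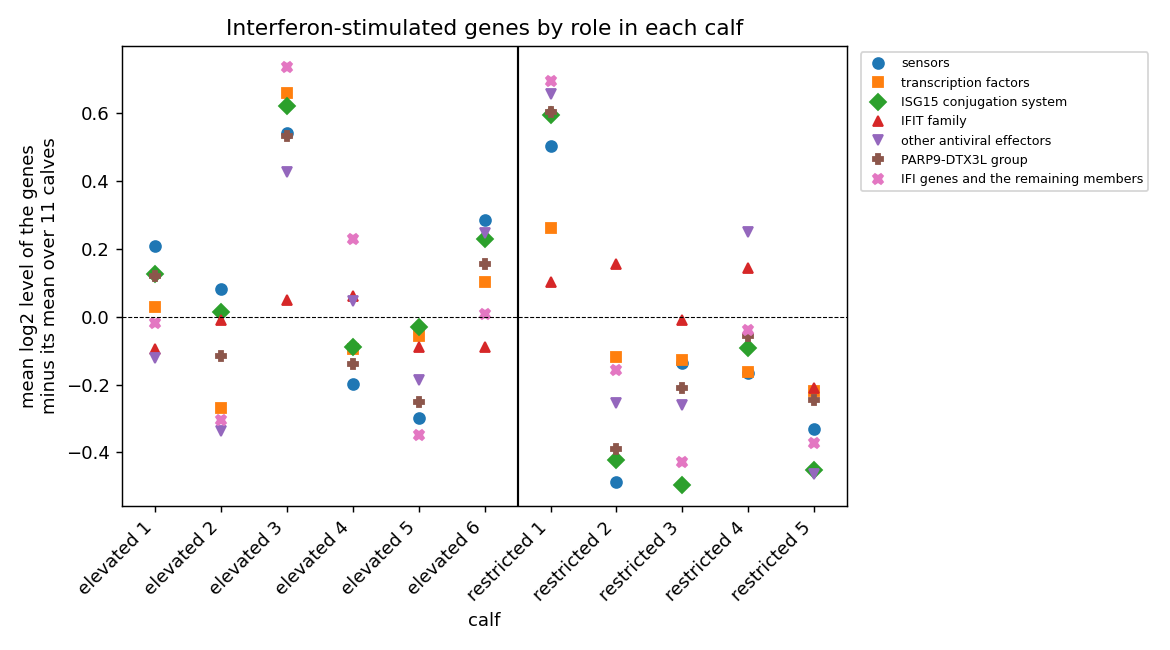
For each role (symbols), the mean log2 level of its genes in a calf minus the mean of that value over 11 calves (vertical axis), with elevated calves left of the line and restricted calves right of it. In elevated 3 and restricted 1 every role except the IFIT family lies above the points of the same role in all other calves.

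The pathway around these genes was read from lists of its other parts. Among interferon ligands, receptors and JAK-STAT genes, 0 of 15 measured genes passed the threshold, and at an unadjusted p under 0.05 limma gave 3 higher and 0 lower in elevated calves (4.95% and 5.33% of all probe sets). These counts were 0 and 1 among the sensors and adaptors, 1 and 0 among the other regulatory factors, 2 and 0 among the negative regulators and 3 and 3 among the other induced genes. IFNLR1, the receptor chain of interferon lambda, which acts mainly on epithelia, was the gene with the smallest p. Its level was 5.40, 5.71 and 6.13 (lowest, median, highest) in elevated calves, against 5.38, 4.84, 5.28, 4.80 and 5.38 in restricted 1 to 5. Every elevated calf lay above every restricted calf, and the lowest values were those of restricted 2 and restricted 4, the calves with the least luminal and most adipocyte signal. The log2 difference was 0.59 ± 0.15 (SE; limma adjusted p = 0.277), and it was 0.38 with the adipocyte marker mean as a covariate; the part of tissue makeup in it was not tested further. The receptor chains of type I interferon, IFNAR1 and IFNAR2, differed by 0.09 and 0.21 (limma adjusted p = 0.712 and 0.429), and the phosphatase gene PTPN6 by 0.33. The kinase gene JAK1 was the other of 2 of 15 genes in this list whose groups did not overlap (1.28% of all probe sets), with 10.30 to 10.55 in elevated and 10.20 to 10.25 in restricted calves.

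Interferon genes themselves were near the bottom of the array's range. The IFNG probe set read 2.97 to 3.34 in elevated and 3.13 to 3.33 in restricted calves, and that of IFNB1 2.65 to 4.31 and 2.81 to 3.73. IFNG read 3.00 in elevated 3 and 3.33 in restricted 1, and IFNB1 2.99 and 2.81. Signals this dim give little information on whether the transcripts were present.

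Of the nucleic acid sensors and their adaptors, 0 of 18 passed; TRAF3, STING1 and TLR9 had the smallest p, with log2 differences of -0.21, 0.18 and 0.31. Of the other interferon regulatory factors, 0 of 5 passed. IRF4, a factor of lymphocytes and dendritic cells, differed by 0.51 (limma adjusted p = 0.338), IRF2 by 0.12, IRF5 by 0.16 and IRF3, the factor that starts interferon transcription, by 0.04. Of the negative regulators, 0 of 14 passed, with IRF2BP2 at 0.33, SIGIRR at 0.43 and SOCS1, a JAK inhibitor, at -0.32.

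Among 48 other interferon-induced genes, 0 passed, and 31 had the higher and 17 the lower mean in elevated calves. CXCL9, a T cell attractant induced by interferon gamma, had the smallest p. It was at 5.71, 7.40 and 8.63 (lowest, median, highest) in elevated calves, against 9.08, 7.57, 8.73, 8.48 and 8.84 in restricted 1 to 5. The log2 difference was -1.28 ± 0.45 (SE; limma adjusted p = 0.388), and -2.05 with the adipocyte marker mean as a covariate. MLKL and MOV10 differed by -0.21 and 0.29. The high levels of elevated 3 and restricted 1 recurred in genes outside the 31, named here after their values were seen. OAS1Y, another oligoadenylate synthetase gene, stood at 9.92 in elevated 3 and 10.41 in restricted 1, while the others had 8.06 to 9.49. ZBP1, a sensor of Z-form nucleic acids, stood at 7.47 and 7.37, against 5.50 to 6.99. Over all 48 genes the mean was 8.32 in elevated 3 and 8.07 in restricted 1, and 7.56 to 7.95 in the other calves. Among the means of the other 4 lists, elevated 3 and restricted 1 ranked 3 and 5 of 11 for ligands, receptors and JAK-STAT genes, 1 and 3 for sensors and adaptors, 2 and 6 for the other regulatory factors, and 1 and 7 for the negative regulators.

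Markers of immune and other cell types were set beside these calves. In 0 of 10 marker lists were elevated 3 and restricted 1 the 2 highest calves. A given pair is seldom the top 2 of 11 in any list, so this count says little. For endothelial markers they were the 2 lowest calves, with 8.81 in elevated 3 (rank 10) and 8.70 in restricted 1 (rank 11). The mean of 15 lymphocyte markers was 6.17 in elevated 3, within 5.90 to 6.50 over elevated calves, and 6.50 in restricted 1, the highest of 5.78 to 6.50 over restricted calves and rank 2 of all 11. The mean of 12 macrophage markers was 8.78 in elevated 3, the highest of 8.04 to 8.78 over elevated calves and rank 2 of all 11, and 8.35 in restricted 1, the lowest of 8.35 to 8.90 over restricted calves. The mean of 11 dendritic cell markers was 6.37 in elevated 3, rank 2 of all 11, and 6.28 in restricted 1, rank 5. Elevated 3 also had rank 2 for skeletal muscle markers, and restricted 1 rank 2 for red blood cell markers. Elevated 3 had the lowest adipocyte mean of all calves (7.67), and restricted 1 ranked among the middle ones. The part of cell makeup in the levels of these calves was not tested.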

How the data were processed

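RNA of mammary parenchyma from 11 calves was read on 1-colour arrays, 1 array per calf, after labelling 100 ng with biotin (RNA integrity number above 7.0), per the labels' protocols. The authors deposited log2 values made with RMA, per the submitters' processing notes; its version is not given in the sources used here, and the log2 scale was read from the values (1.08 to 14.20). RMA aligns the arrays' distributions, so a shift of all transcripts would not show. Precision is limited by the number of arrays, whose values correlated at 0.964 to 0.990. Gene symbols came from the platform annotation; each of the 31 genes had 1 probe set, so the planned mean over probe sets was the same value. No array genome build is named, so no coordinates are given; ARS-UCD2.0 served for neighbours only. Promoter motifs were not analysed here.

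The fit was limma 3.58.1 in R 4.3.3 (lmFit and eBayes, no covariate, no filter), adjusted by Benjamini-Hochberg over 26773 probe sets. Differences are elevated minus restricted, SE is moderated, and p is two-sided. The fit was tested on simulated data. The lowest, median and highest elevated value and every restricted value are given for the 8 genes with the smallest p, the 6 with the largest pooled within-group SD and 6 fixed genes; RSAD2 was added after its values were seen. From each pathway list the 3 genes with the smallest p are named, and IFNAR1, IFNAR2 and IRF3 always; JAK1, IFNG, IFNB1, OAS1Y and ZBP1 were added after their values were seen. The genes and lists were chosen with earlier results of these data known. Figures used matplotlib 3.10.9.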

Additional observations from a re-analysis of the deposited data

Results flagged for a closer look

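Samples that stood far from the rest of their group by Dixon's criterion at the 95% level were found in 10 of 100 groups of values examined (49 genes and the mean of the 31 genes, in each diet), where chance flags about 1 in 20, and genes that move together are not independent cases. Elevated 3 was high at 5 genes. IRF9 stood at 9.09 against 8.09 to 8.40 in the other elevated calves, ISG15 at 6.25 against 5.88 to 6.00, UBA7 at 8.60 against 7.30 to 7.61, DTX3L at 9.29 against 8.60 to 8.83 and XAF1 at 8.08 against 6.60 to 7.02. Restricted 1 was high at 3 genes. IRF9 stood at 8.76 against 7.87 to 8.08 in the other restricted calves, PARP9 at 8.10 against 7.03 to 7.30 and XAF1 at 7.73 against 6.44 to 6.80. Elevated 5 was low at EIF2AK2, with 8.55 against 8.89 to 9.07, and at STING1, with 9.01 against 9.44 to 9.67.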

How the results depend on the processing

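In every setting run, 0 of the genes tested passed the adjusted threshold in limma in either direction. The smallest adjusted p in limma lay between 0.272 and 0.71. All 31 genes were tested except without dim probe sets, where 27 were. At an unadjusted p under 0.05 in limma there were 0 to 7, the 7 without restricted 1, and 4 without elevated 3 and restricted 1. The share of all probe sets under that level was computed for the main fit only. The counts in the other settings therefore cannot be read as particular to these genes. The median difference of the 31 genes (0.13) was 0.12 with quantile normalisation, 0.12 with the replicate block, 0.15 with array weights, 0.13 with trend and robust variance, 0.13 without dim probe sets, -0.019 with the adipocyte marker mean as a covariate, and 0.0086 (without elevated 3) to 0.26 (without restricted 1) over left-out calves. The number of genes with the higher mean in elevated calves was 14 to 28. The median pooled within-group SD was 0.226 without the calf of each group farthest from its median in the mean of the same 31 genes. Of all probe sets, 2 passed as lower; this count was 0 with the replicate block, 0 with the adipocyte covariate, 0 without elevated 3 and restricted 1, 4 with array weights, and 0 to 9 (higher in elevated calves 0 to 3) over left-out calves. Without restricted 2 and restricted 4 it was 22 (3 higher), and without elevated 5 as well 14 (1 higher). Fits without 2 or 3 calves were chosen after seeing the data. Replicate numbers did not pair the calves: deviations of same-numbered calves correlated at -0.15 to 0.21, and 1 of 5 calves matched its own number best. The replicate block turned no named gene's direction. Only elevated calves have a replicate 6, so the differences with this block are those without elevated 6 (0.47 for HERC6 in both). It is therefore not a separate check on direction.

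Of 49 genes named, 27 kept their sign in every setting in which they were tested (4 of them, ISG15, IFNLR1, TLR9 and MLKL, were not tested without dim probe sets), and 0 passed the threshold in any; the cause of the sign changes was not tested. Signs turned with array weights for IFIT3 (0.013), MX2 (0.10), EIF2AK2 (0.000867), LGALS3BP (0.024) and RIGI (0.042). With the adipocyte covariate they turned for IFIH1 (-0.019), DHX58 (-0.068), IRF7 (-0.023), IFIT2 (0.090), TRIM21 (-0.093), PARP9 (-0.13), PARP14 (-0.19), DTX3L (-0.064), IFI6 (-0.17), IFI27 (-0.15), XAF1 (-0.063), IRF5 (-0.018) and IRF3 (-0.051). Without elevated 3 and restricted 1 they turned for MX2 (0.051), EIF2AK2 (0.078) and RIGI (0.099). Without restricted 2 and restricted 4 they turned for IFIT2 (0.069), IFIT3 (0.012), PARP9 (-0.0109), PARP14 (-0.0304), IFI6 (-0.051), LGALS3BP (0.026), RIGI (0.013) and IRF3 (-0.045), and without elevated 5 as well for IFIT2 (0.066), IFIT3 (0.038), MX2 (0.10), EIF2AK2 (0.052), LGALS3BP (0.091), RIGI (0.069), SOCS1 (0.0086) and IRF3 (-0.0283). Over left-out calves the sign turned for DTX3L (-0.0049 to 0.24), EIF2AK2 (-0.14 to 0.11), IFI27 (-0.097 to 0.52), IFI6 (-0.16 to 0.24), IFIT2 (-0.11 to 0.00034), IRF3 (-0.024 to 0.069), MX2 (-0.31 to 0.21), OAS2 (-0.062 to 0.39), PARP14 (-0.013 to 0.26), RIGI (-0.14 to 0.17), RSAD2 (-0.066 to 0.17), TRIM21 (-0.041 to 0.11) and UBA7 (-0.0011 to 0.32). With no change of sign, the ranges were 0.064 to 0.60 for MX1, 0.032 to 0.26 for ISG15, 0.069 to 0.37 for IRF9, 0.15 to 0.46 for DHX58, 0.098 to 0.34 for IRF7, 0.11 to 0.27 for IFI35 and 0.077 to 0.30 for CMPK2. No background correction could be varied from the values used.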
